A study of Mus musculus with 2 samples.

Results

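This report covers 36 mouse genes for heat shock proteins, their co-chaperones and the heat shock transcription factors, taken by name from the probes of the array that are not controls. All 36 were on the array, with 79 probes, and all 36 had at least 1 probe well above background on both arrays, among 23946 genes measured that way. Both samples were total RNA of brain from postnatal day 10 mice of strain C57BL/6J, each on 1 Agilent array read in 1 colour. One was labelled GPHR F/F;Nes and the other GPHR F/F, a littermate control, so both carried the F/F allele pair (n = 1 per group). The series is titled for the loss of GPHR, the Golgi pH regulator, in the brain. What drives the deletion, in which cells, and how many animals gave each RNA are not given in the sources used here.

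Chaperones of the heat shock families bind unfolded proteins and keep them from aggregating, help them fold or hand them on for degradation. HSP70 proteins do so in cycles of ATP binding that HSP40 (DnaJ) proteins start and that BAG and HSP110 proteins end by releasing the nucleotide, and HSP90 finishes the folding of many signalling proteins with co-chaperones of its own. Small heat shock proteins hold unfolded clients without ATP. In the classical heat shock response the transcription factor HSF1 binds heat shock elements, inverted repeats of the letters GAA and TTC, in the promoters of Hspa1a, Hspa1b, Dnajb1, Hsph1, Hspb1 and others. In the brain Hspa8 and both HSP90 genes are made constitutively, and the small heat shock proteins are known chiefly from glia, vessel walls and muscle.

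Some facts of both arrays bear on every value. The GPHR F/F;Nes array was dimmer, with 75% of its probe signals below 173.4 units, against 259.5 units on the GPHR F/F array. A level is given below as the log2 signal minus the log2 of that 75th percentile on the same array, and a difference is the GPHR F/F;Nes level minus the GPHR F/F level. The ± after a difference is the error that the scanner software assigns to the signals, and it holds no spread between animals. With 1 array per genotype no difference has a replicate check, no test between the genotypes was made, array and genotype cannot be told apart, and a gene was counted when it was at least 2-fold apart. Gpr89, the gene of GPHR, had raw signals of 20.04 units in GPHR F/F;Nes brain and 43.3 units in GPHR F/F, a difference of -0.53 ± 0.22. The labels do not say whether its probe lies in the deleted part. Xist had signal only on the GPHR F/F;Nes array and the Y-linked Eif2s3y only on the GPHR F/F array, so genotype and sex cannot be told apart. Neuronal markers (7 of 7 measured) and astrocyte markers (7 of 7 measured) gave signal on both arrays, as the tissue label says.

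The promoter sequences below show where the letters of the heat shock element lie in the genes that the results turn on. They are RefSeq windows of build GRCm38.p6, 250 bases before to 50 bases after each annotated start, and 29 of the 36 genes had a window. Searched on both strands were the paired units TTCNNGAA and GAANNTTC and the 3-unit form, a paired unit followed after 2 more bases by another unit in the turned orientation, so that each 3-unit form overlaps pairs. The 250 bases before the start are given for Hspb1 (chr5:135887669-135887918, plus strand), which differed between the genotypes, and for Hspa1a (chr17:34972157-34972406, minus strand), which differed little, with the motif letters in capitals.
Hspb1: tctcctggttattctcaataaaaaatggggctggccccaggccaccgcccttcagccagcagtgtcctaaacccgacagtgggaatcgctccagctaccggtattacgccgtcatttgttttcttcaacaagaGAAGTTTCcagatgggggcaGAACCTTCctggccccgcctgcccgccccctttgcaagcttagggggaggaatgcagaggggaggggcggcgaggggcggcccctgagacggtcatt
Hspa1a: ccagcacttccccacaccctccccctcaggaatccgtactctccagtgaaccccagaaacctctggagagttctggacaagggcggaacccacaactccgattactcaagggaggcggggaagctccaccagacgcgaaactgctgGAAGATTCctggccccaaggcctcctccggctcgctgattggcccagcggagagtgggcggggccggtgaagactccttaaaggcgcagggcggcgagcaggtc

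For 5 further genes a stretch of 30 bases around the motif is shown. Hspb8 and Bag3, both higher in GPHR F/F;Nes, carried a paired unit just after the start, and Hspe1, Chordc1 and Dnajb6 the longer 3-unit form. Units after the start also occurred in Chordc1 and Hsph1, and paired units alone in Hspb3 and Dnaja4, all with differences below 0. The stretches shown lie at chr5:116422844-116422873 on the minus strand (Hspb8) and chr7:128523603-128523632 on the plus strand (Bag3). Those of the others lie at chr1:55088053-55088082 (Hspe1), chr9:18292259-18292288 (Chordc1) and chr5:29735843-29735872 (Dnajb6), all on the plus strand.
Hspb8: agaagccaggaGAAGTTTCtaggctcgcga
Bag3: ccaagttctctggatgggaccaGAAGTTTC
Hspe1: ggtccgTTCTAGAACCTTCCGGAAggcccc
Chordc1: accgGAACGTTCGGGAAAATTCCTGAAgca
Dnajb6: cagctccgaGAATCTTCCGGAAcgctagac

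Across the 36 genes, 4 were at least 2-fold higher in GPHR F/F;Nes and none was 2-fold lower. The 4 were the small heat shock genes Hspb8, Hspb2 and Hspb1 and the co-chaperone gene Bag3. Of all 23946 measured genes, 7.94% were past 2-fold on the higher side and 1.37% on the lower side, so 4 of 36 (11.1%) lay near the background and is no result about the whole group. The median difference of the 36 genes was -0.08, against 0.07 for all measured genes. Outside the small heat shock class and Bag3, all 30 genes lay between -0.52 and 0.34, with a median of -0.12. At 1.5-fold, 4 of the 36 genes were higher and 1 lower (Hspb3), against 18.2% and 5.69% of all measured genes. Of all genes past 2-fold, the share that was higher in GPHR F/F;Nes was 85.3% with the 75th percentile scaling. It was 74.8% with a loess correction, 68.6% with quantile normalization, 57.1% when arrays were set to equal medians and 1.25% when spike-in RNAs set the scale.

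**Figure D1:**
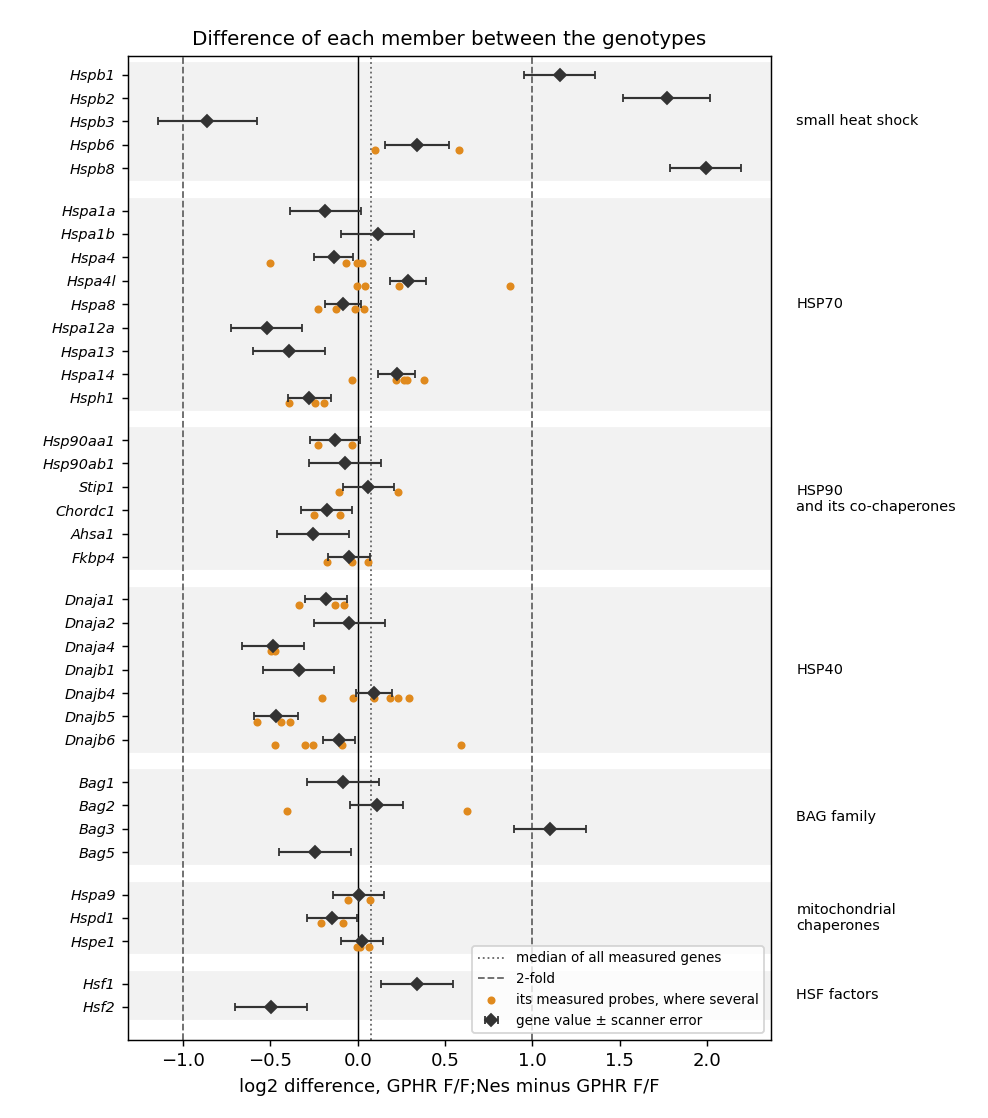
Log2 difference (GPHR F/F;Nes brain minus GPHR F/F brain) of each of the 36 genes by class (diamonds, with bars for the scanner error; n = 1 array per genotype) and of the single probes where a gene had several (orange points). Dashed lines mark 2-fold and the dotted line the median of all measured genes; Hspb8, Hspb2, Hspb1 and Bag3 lie to the right of 2-fold, and the nearest gene on the other side is Hspb3 at -0.86.

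The small heat shock genes held 3 of the 4 genes past 2-fold. Hspb8 encodes a small heat shock protein that works with BAG3 to pass misfolded proteins to autophagy. Its level was 1.90 in GPHR F/F;Nes and -0.09 in GPHR F/F, from raw signals of 646 and 243 units. The difference of 1.99 ± 0.20 (3.98-fold higher) exceeded that of 99.3% of all measured genes. Among the 1234 genes within 0.25 log2 units of its mean level, the median difference was -0.06 and 3.32% were at least 2-fold higher. Few genes of like level were as far apart, and the raw signal of Hspb8 was also the higher one on the dimmer GPHR F/F;Nes array.

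Hspb2, whose protein binds the myotonic dystrophy kinase in muscle, had a level of -2.25 in GPHR F/F;Nes and -4.01 in GPHR F/F, from dim raw signals of 36.5 and 16.05 units. The difference was 1.77 ± 0.25 (3.40-fold higher). Dim genes as a whole were shifted upward on these arrays: of the 1667 genes within 0.25 log2 units of its mean level, 14.8% were at least 2-fold higher and the median difference was 0.31. With normexp background correction and an offset of 50 its difference was 0.43, below 2-fold. Hspb1, the small heat shock protein that binds and protects actin filaments, had a level of 1.32 in GPHR F/F;Nes and 0.16 in GPHR F/F, and raw signals of 431 and 290 units. Its difference was 1.16 ± 0.20 (2.23-fold higher), in a range of levels where the median difference was -0.07 and 3.43% of 1311 genes were 2-fold higher.

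The other members of the class, Hspb6 and Hspb3, stayed within 2-fold. Hspb6, a small heat shock protein best known from smooth and heart muscle, had levels of -2.04 in GPHR F/F;Nes brain and -2.38 in GPHR F/F, and a difference of 0.34 ± 0.18. Its probes gave 0.58 for the brighter and 0.10 for the dimmer one. Hspb3, which forms complexes with HSPB2 in muscle, had the largest negative difference of the 36 genes, at -0.86 ± 0.28 (1.82-fold lower). Its level was -4.19 in GPHR F/F;Nes and -3.33 in GPHR F/F, from raw signals of 9.51 and 25.8 units, both dim. Among the 1505 genes of like level to Hspb3, the median difference was 0.42 and 1.73% were at least 2-fold lower. Its difference lay past 2-fold with arrays set to equal medians (-1.14), quantile normalization (-1.24), the loess correction (-1.17) and spike-in scaling (-1.89), and it was -0.31 with normexp correction. The class therefore spanned differences from -0.86 to 1.99, with a median of 1.16.

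Bag3 was the only one of 4 BAG genes past 2-fold. BAG3 holds HSP70 and small heat shock proteins together and is itself induced in the heat shock response. Its level was 0.96 in GPHR F/F;Nes and -0.14 in GPHR F/F, from raw signals of 338 and 236 units. The difference was 1.10 ± 0.20 (2.14-fold higher), against a median of -0.06 among 1379 genes of like level, 3.41% of which were 2-fold higher. Bag1, which releases nucleotide from HSP70, had levels of 5.10 in GPHR F/F;Nes and 5.18 in GPHR F/F. Bag5 had levels of 2.20 and 2.45 in the same order of genotypes, and a difference of -0.24 ± 0.20. Bag2, an inhibitor of the ubiquitin ligase CHIP, had a gene value of 0.11 ± 0.15 from probes that disagreed, -0.41 for the brighter RefSeq probe and 0.62 for a dim probe of another transcript. With arrays set to equal medians, Bag3 and Hspb1 stood at 0.82 and 0.88, below 2-fold, and Bag3 stood at 0.87 with normexp correction. Scaling to spike-in RNAs lowered every difference by 1.03, and Hspb8, Hspb2, Hspb1 and Bag3 then stood at 0.96, 0.74, 0.12 and 0.07.

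All 4 genes past 2-fold rested on 1 measured probe each. Their probes lay on mm9 at chr5:116859063-116859122 (minus strand, Hspb8), chr9:50559211-50559270 (minus strand, Hspb2), chr5:136365366-136365425 (plus strand, Hspb1) and chr7:135690420-135690479 (plus strand, Bag3), each 60 bases long and annotated by the array's design to a RefSeq mRNA. Exons and untranslated regions under them were not analysed here. Among measured genes with a RefSeq symbol, 10.3% of 9353 genes with 1 measured probe were at least 2-fold higher, against 2.7% of 7899 genes with several. Of the 36 genes, 17 had 1 measured probe and 19 had several. None of the 59 probes of those 19 genes was 2-fold apart. The share of all measured probes past 2-fold was not counted, so this is no result about those genes.

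Genes of the HSP70 class differed little. Hspa1a and Hspa1b encode the stress-inducible HSP70, and their coding sequences are nearly identical, so the split between them is uncertain. Hspa1a had raw signals of 306 units in GPHR F/F;Nes and 520.3 units in GPHR F/F, a difference of -0.18 ± 0.20 once scaled. Hspa1b had levels of -1.64 in GPHR F/F;Nes and -1.75 in GPHR F/F (0.11 ± 0.21). Both differences were smaller than their scanner error. Hspa8, the constitutive HSC70, had raw signals of 5253 units in GPHR F/F;Nes and 8328 units in GPHR F/F, a difference of -0.08 ± 0.10, and its 4 probes ran from -0.22 to 0.03. The HSP110 genes, whose proteins act as nucleotide exchange factors, gave -0.28 ± 0.12 (Hsph1), -0.14 ± 0.11 (Hspa4) and 0.29 ± 0.10 (Hspa4l). Of the 4 Hspa4l probes, 1 designed to a cDNA clone stood at 0.87 and the 3 RefSeq probes at 0.24 or below. Of the more distant relatives, the ribosome-associated Hspa14 stood at 0.22 ± 0.11, the microsomal Hspa13 at -0.39 ± 0.20 and Hspa12a at -0.52 ± 0.20. Hspa12a had levels of 3.09 in GPHR F/F;Nes and 3.61 in GPHR F/F, the largest difference of the class. Of the 9 genes 6 lay below 0, as did 10295 of all 23946 measured genes.

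**Figure D2:**
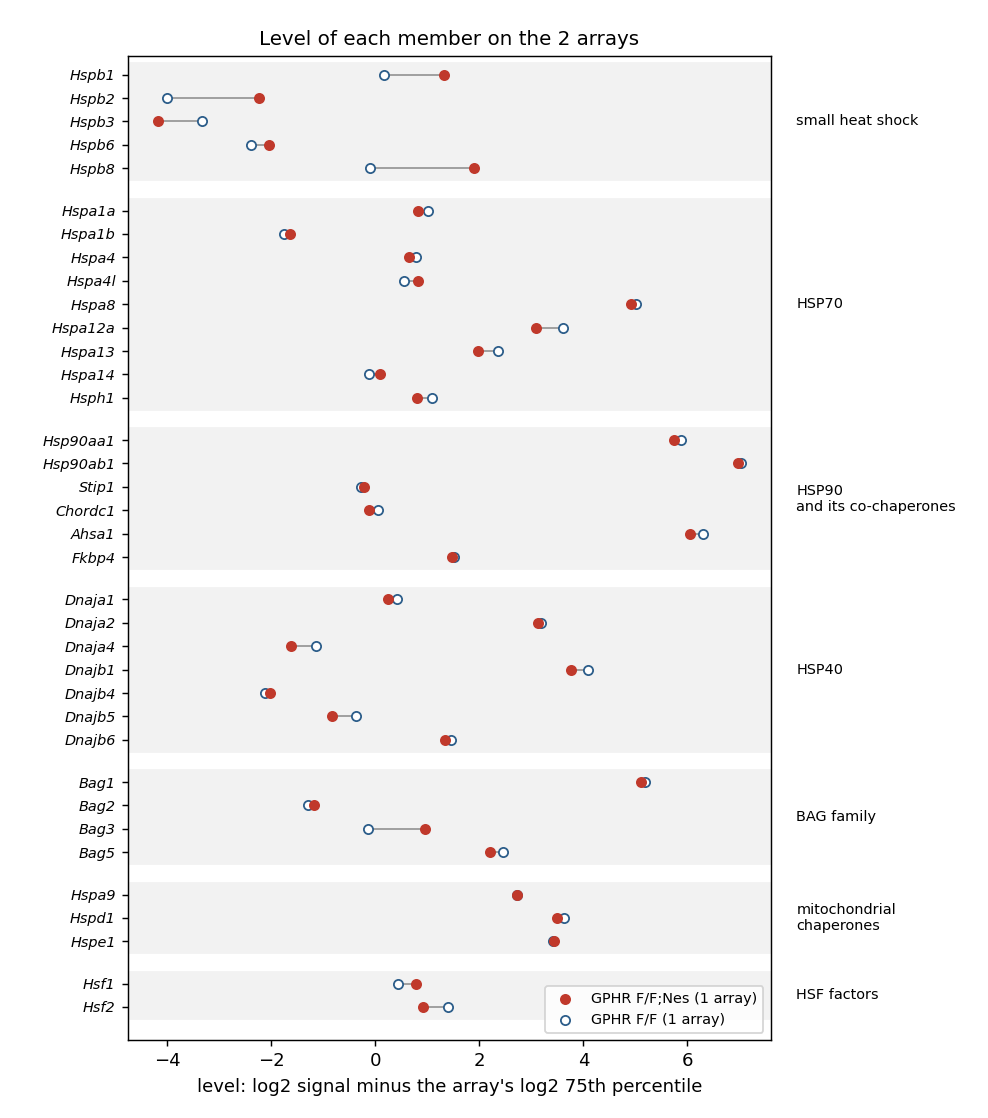
Level of each of the 36 genes on the GPHR F/F;Nes array (filled) and the GPHR F/F array (open), as log2 signal minus the array's log2 75th percentile, by class (n = 1 array each). Levels are comparable between the arrays within a row and not between rows, which are different probes; the widest gaps are those of Hspb8 and Hspb2.

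HSP90 genes and their co-chaperones all lay between -0.25 and 0.06. The stress-inducible Hsp90aa1 had levels of 5.74 in GPHR F/F;Nes and 5.87 in GPHR F/F (-0.13 ± 0.14), and the constitutive Hsp90ab1 6.97 and 7.04 (-0.07 ± 0.20). Ahsa1, which activates the ATPase of HSP90, had levels of 6.05 in GPHR F/F;Nes and 6.30 in GPHR F/F, a difference of -0.25 ± 0.20. Chordc1 stood at -0.18 ± 0.15, the immunophilin gene Fkbp4 at -0.05 ± 0.12, and Stip1, the adaptor that links HSP70 to HSP90, at 0.06 ± 0.15. None of the 6 genes was 1.5-fold apart, and the class median was -0.10. Of all measured genes, 18.2% were at least 1.5-fold higher and 5.69% lower. With only 6 genes, the count is no result about the class.

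Of 7 HSP40 genes 6 lay below 0, by small amounts, with a median of -0.18. Of all 23946 measured genes, 10295 lay below 0. For the 7 genes, medians among genes of like level ran from -0.11 (Dnaja2) to 0.17 (Dnajb4). Dnajb1, the stress-inducible partner of HSP70, had levels of 3.75 in GPHR F/F;Nes and 4.09 in GPHR F/F, from raw signals of 2338 and 4421 units. The difference was -0.34 ± 0.20, against a median of -0.10 among 366 genes of like level. Hspb1 and Bag3, which are also induced in the heat shock response, stood at 1.16 and 1.10. The activity of that response was not tested. Dnaja4 (-0.48 ± 0.18) and Dnajb5 (-0.47 ± 0.12) had the largest differences of the class, and all probes of each went the same way. Dnaja1 stood at -0.18 ± 0.12, Dnaja2 at -0.05 ± 0.20 and Dnajb4 at 0.09 ± 0.10. Dnajb6, which suppresses aggregation of polyglutamine proteins, had a value of -0.11 ± 0.09 from 5 probes that ran from -0.47 to 0.59.

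Mitochondrial chaperone genes were nearly level between the genotypes. Hspd1 (HSP60) had levels of 3.49 in GPHR F/F;Nes and 3.64 in GPHR F/F (-0.15 ± 0.14). Its partner Hspe1 (HSP10) had levels of 3.44 and 3.42 (0.02 ± 0.12), and Hspa9, the mitochondrial HSP70, 2.73 and 2.72 (0.01 ± 0.14). The 7 measured probes of these 3 genes lay between -0.21 and 0.07. Of the transcription factors, Hsf1 had levels of 0.78 in GPHR F/F;Nes and 0.44 in GPHR F/F (0.34 ± 0.20), and Hsf2 0.91 and 1.40 (-0.50 ± 0.20). HSF1 is regulated mainly at the protein level, and a transcript level does not measure its activity.

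Motifs of the heat shock element were commoner in these promoters than in all promoters, and genes that carry one differed in both directions. A paired unit occurred in 16 of the 29 genes with a window (55.2%), against 17.0% of all 27025 genes with one. A 3-unit form occurred in 5 of 29 (17.2%), against 0.662% of all genes. A gene with several windows counted if any of them matched. By window, a paired unit occurred in 42.9% of 42, against 15.1% of all 32851, and a 3-unit form in 16.7% against 0.603%. The 5 genes with a 3-unit form, Chordc1, Dnajb6, Hspd1, Hspe1 and Hsph1, had differences between -0.28 and 0.02. Hspd1 and Hspe1 share 1 site, at chr1:55088053-55088082, in overlapping windows on opposite strands, so it is counted for both. Hspa1a and Hspa1b carry a paired unit within the same 30 letters, each at its own place, and both are counted. The 11 genes with paired units alone ran from -0.86 to 1.99 and held Hspb8, Hspb1 and Bag3. The 13 genes with none of these letters ran from -0.52 to 0.29. Hspb2 had no window. A match of letters is not a bound site, and their absence from these windows, as for Dnajb1, says nothing of the factor.

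Other chaperone genes, 62 in lists by function, were mostly close between the genotypes too. Of 60 measured, 3 (5.0%) were at least 2-fold higher in GPHR F/F;Nes and none was 2-fold lower. Of all measured genes, 7.94% and 1.37% were past 2-fold on these sides, and 18.2% and 5.69% past 1.5-fold. The count of 3 is thus no result about these lists. The median difference of the 60 genes was -0.07. The highest was Cryab, the small heat shock protein alpha-B crystallin, with levels of 2.91 in GPHR F/F;Nes and 1.28 in GPHR F/F (1.63 ± 0.20). In the RefSeq annotation of GRCm38.p6 the Hspb2 gene lies inside the interval of Cryab on chromosome 9. Both others were dim, the testis HSP70 gene Hspa1l at 1.01 ± 0.31 and the endothelial Hspa12b at 1.02 ± 0.36. Hspb7 and Hsf4 were well above background only on the GPHR F/F;Nes array, by at least 1.74-fold and at least 2.06-fold over the lowest signal that counted on the other. None of 14 genes of the CCT chaperonin and prefoldin was 1.5-fold apart (median -0.11), nor any of 9 other HSP90 co-chaperones (-0.16), 14 other DnaJ genes (-0.02) or 8 other mitochondrial chaperones and proteases (-0.03).

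**Figure D3:**
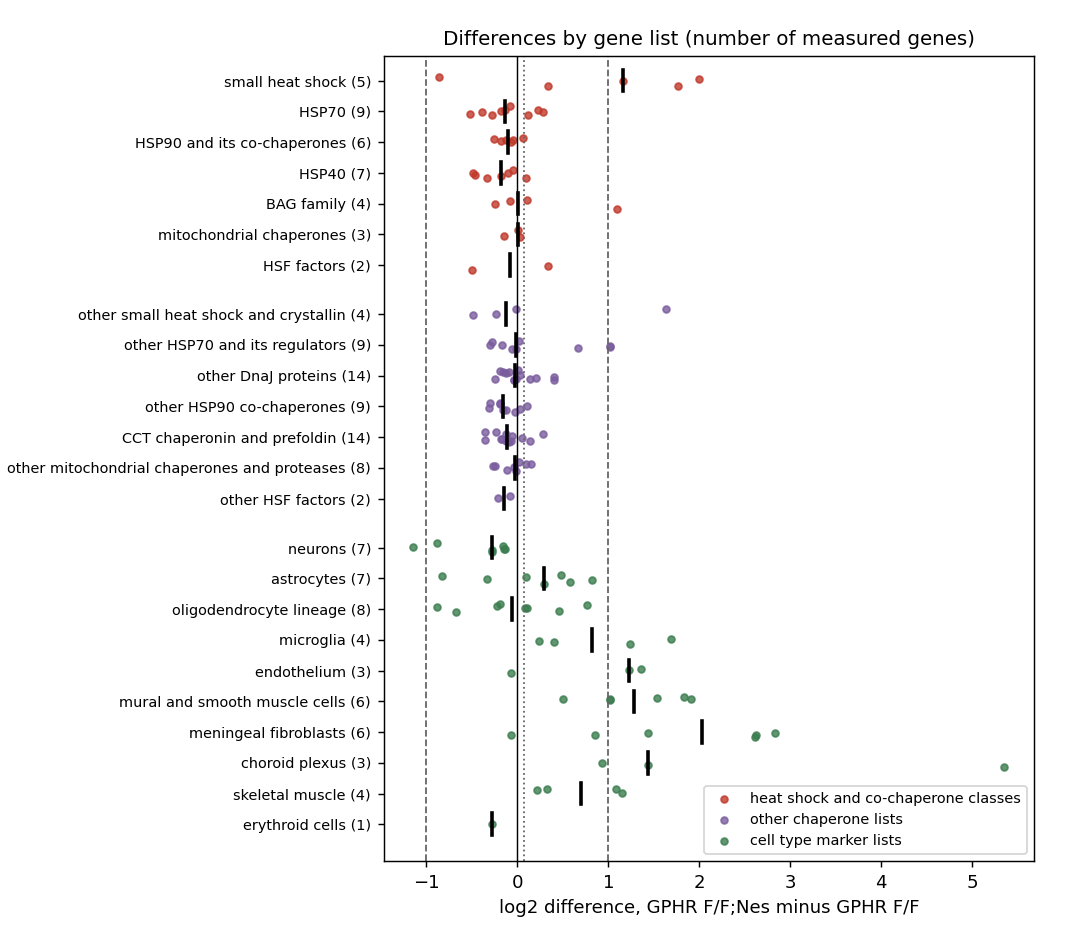
Log2 difference (GPHR F/F;Nes brain minus GPHR F/F brain) of each measured gene (points) in the 7 classes, in 7 lists of other chaperone genes and in 10 lists of cell type markers, with the list median as a black bar (number of genes in brackets; n = 1 array per genotype). Dashed lines mark 2-fold and the dotted line the median of all measured genes. The 5 small heat shock genes run from -0.86 to 1.99 (median 1.16), and the medians of the other chaperone classes lie near 0. The highest marker medians are those of meningeal fibroblasts (2.03), choroid plexus (1.43), mural cells (1.28) and endothelium (1.23). Those of microglia (0.82), skeletal muscle (0.70) and astrocytes (0.29) also lie above 0, and those of neurons, oligodendrocytes and erythroid cells below 0.

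Markers of mural cells, a cell type of vessel walls, lay on the same side as 4 of the 5 small heat shock genes. That side was not particular to mural cells. The mural median was 1.28, against 2.03 for meningeal fibroblasts, 1.43 for choroid plexus, 1.23 for endothelium and 0.82 for microglia. Medians of skeletal muscle (0.70) and astrocytes (0.29) were also above 0. Those of neurons (-0.28), oligodendrocytes (-0.06) and erythroid cells (-0.28) were below 0. Of 8 mural and smooth muscle cell markers 6 were measured, and 5 of them were at least 2-fold higher in GPHR F/F;Nes. Of all measured genes, 7.94% were. Cnn1 (1.91 ± 0.20), Tagln (1.83 ± 0.20) and Myl9 (1.54 ± 0.20) led the list, whereas Des and Rgs5 were not well above background on either array. Acta2 (1.02 ± 0.12, with probes from 0.17 to 1.54) and Pdgfrb (1.02 ± 0.21) were only just past 2-fold, and Myh11 stood at 0.50 ± 0.25. With arrays set to equal medians, which lowers all differences by 0.28, Acta2 and Pdgfrb lie below 2-fold. Marker counts are given for the 75th percentile scaling alone. The summed level of the list, in multiples of the 75th percentile, was 52.4 in GPHR F/F;Nes and 17.0 in GPHR F/F. The sum over the 5 small heat shock genes was 6.72 in GPHR F/F;Nes and 2.41 in GPHR F/F. Such sums add different probes and are weighted to the brightest, such as Tagln (levels of 4.93 in GPHR F/F;Nes and 3.10 in GPHR F/F). They can be compared between the arrays within a list and not between lists. The part of mural cells, or of any other cell type, in the small heat shock result was not tested. In whole brain, fewer cells of a type and less RNA per cell cannot be told apart.

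The remaining marker lists differed in both directions. Of all measured genes, 7.94% were at least 2-fold higher in GPHR F/F;Nes. Among the genes of like level to the dim Hspb2, 14.8% were. Slc6a13 was about as dim, with levels of -1.65 in GPHR F/F;Nes and -4.48 in GPHR F/F. Of 6 meningeal fibroblast markers 4 were 2-fold higher (Slc6a13 at 2.84 ± 0.28, Col3a1 at 2.62 ± 0.21, Col1a2 at 2.61 ± 0.21), whereas Dcn, which gave most of the summed level on each array, stood at -0.07 ± 0.20. That summed level was 9.88 in GPHR F/F;Nes and 7.30 in GPHR F/F. Of 6 endothelial markers 3 were measured and 2 were 2-fold higher, Flt1 (1.35 ± 0.21) and Kdr (1.23 ± 0.20), with Pecam1 at -0.07 ± 0.23, while Cldn5, Tek and Cdh5 were not well above background. The summed endothelial level was 6.22 in GPHR F/F;Nes and 2.71 in GPHR F/F. Of 5 choroid plexus markers 3 were measured, Ttr (5.35 ± 0.22), Folr1 (1.43 ± 0.15) and Aqp1 (0.92 ± 0.22), with summed levels of 5.44 and 0.62 in the same order of genotypes. Clic6 had signal only on the GPHR F/F;Nes array, and Kl was not well above background.

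Astrocyte markers were less than 2-fold apart, led by S100b (-0.83 ± 0.20), Gfap (0.82 ± 0.14) and Aqp4 (0.58 ± 0.12), with a summed level of 22.3 in GPHR F/F;Nes and 17.6 in GPHR F/F. Of 4 skeletal muscle markers with signal, Tnnt3 (1.15 ± 0.18) and Acta1 (1.09 ± 0.21) were 2-fold higher, with Ckm not well above background. Their summed level was 0.80 in GPHR F/F;Nes and 0.40 in GPHR F/F. Of all measured genes, 7.94% were at least 2-fold higher, and 14.8% and 20.0% of genes of like level to Hspb2 and Hspb3. Tnnt3 (levels of -2.60 in GPHR F/F;Nes and -3.75 in GPHR F/F) and the microglia gene C1qa (-3.18 and -4.42) were about as dim. Of 6 microglia markers 4 were measured, and Cx3cr1 (1.69 ± 0.22) and C1qa (1.24 ± 0.28) were 2-fold higher. Of the others, Tmem119 had signal only on the GPHR F/F;Nes array (at least 4.60-fold higher) and P2ry12 was not well above background. The summed microglia level was 2.03 in GPHR F/F;Nes and 1.44 in GPHR F/F. All 7 neuronal markers lay below 0, as did 10295 of all 23946 measured genes, with Nefl at -1.14 ± 0.14 and Rbfox3 at -0.88 ± 0.12. The summed level of the neuronal markers was 67.2 in GPHR F/F;Nes and 86.5 in GPHR F/F. Its brightest gene was Tubb3, with levels of 5.26 and 5.54 in the same order. Oligodendrocyte markers had a median of -0.06 over 8 genes, led by Sox10 (-0.88 ± 0.20), Mag (0.77 ± 0.15) and Pdgfra (-0.67 ± 0.16), and a summed level of 21.5 in GPHR F/F;Nes and 25.4 in GPHR F/F. The erythroid marker Hba-a1 stood at -0.28 ± 0.06, with Hbb-b1 and Alas2 not well above background.

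**Figure D4:**
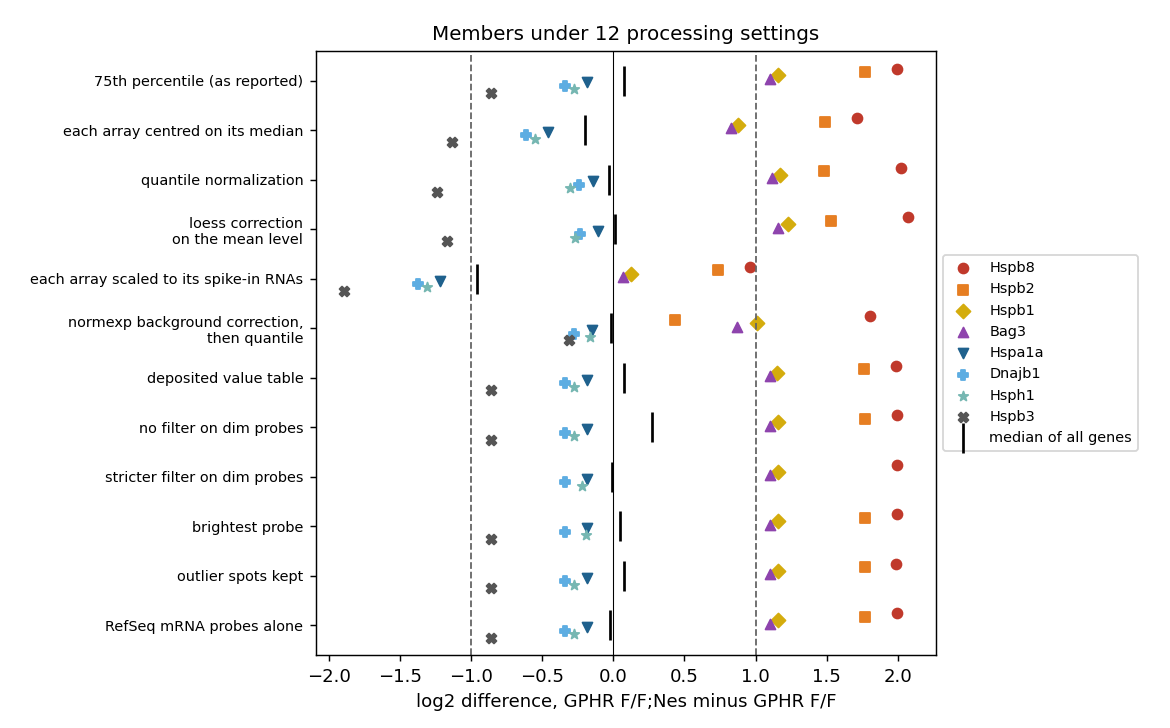
Log2 difference (GPHR F/F;Nes brain minus GPHR F/F brain) of 8 genes (coloured symbols) and the median of all measured genes (black bar) under the reported setting and 11 alternatives (rows; n = 1 array per genotype). Hspb8, Hspb2, Hspb1 and Bag3 lie right of 0 in every row where they have a value, but only Hspb8 stays past the 2-fold line (dashed) in all rows except that of the spike-in RNAs; Hspb2 and Hspb3 have no value under the stricter filter.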

How the data were processed

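The labels' protocols name TRIzol for the extraction and a low-input Agilent method for the Cy3 labelling. Scans were read with Agilent Feature Extraction 11.5.1.1 (submitters' processing notes). The deposited scanner files give each spot an intensity that, per the file headers, is background-subtracted and detrended, the software's error of it, and other values (0 or 1 flags). The deposited value table is on the log2 scale. It equalled the log2 processed signal plus a constant per array, within 0.001, for 99.9% of probes on each, so its scale and direction are known and how its constants were set is not. Its medians were -2.92 for GPHR F/F;Nes and -3.19 for GPHR F/F.

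Outlier spots were left out (96 of 59305), spots of a probe averaged as log2, and each array's 75th percentile subtracted. A gene's value is the mean over its probes well above background on both arrays (36717 probes). Of the 79 probes of the 36 genes, 76 passed. Genes with signal on 1 array got a bound, taken against the dimmest probe of the other array that was still well above background. Where the gene's own signal on that other array was higher than this, the bound was taken against its own signal, as for Tmem119. Of 56603 probes, 32993 matched RefSeq (GRCm38.p6) by accession. No spot was saturated. The number of arrays, 1 per genotype, limits the precision.

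The members and lists were chosen with earlier results of these data known. All 36 genes are named, with other chaperone genes past 2-fold, up to 3 leading markers per list and some further markers. Analyses used Python 3.11.15, numpy 2.4.6, pandas 2.3.3, R 4.3.3 and limma 3.58.1, and the calculation was tested on simulated arrays. Alternatives covered scaling (median, quantile, loess with span 0.3, 8 spike-in probes), normexp (offset 50), the deposited table, no or a stricter filter (25th percentile), the brightest probe, outlier spots kept, a 1.5-fold threshold and, added after seeing the data, RefSeq mRNA probes alone.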

Additional observations from a re-analysis of the deposited data

How the results depend on the processing

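Centring each array on its median lowered all differences by 0.28 and scaling to spike-in RNAs lowered them by 1.03. The number of the 36 genes at least 2-fold higher was 4 as reported, 2 with median centring, 2 after normexp correction and 0 after spike-in scaling, where 24 were at least 2-fold lower. At least 2-fold lower was 1 gene with median centring, quantile normalization or loess correction, and 1 gene at a 1.5-fold threshold, in each case Hspb3. The medians with median centring and with spike-in scaling were -0.36 and -1.12 for all 36 genes, 0.88 and 0.12 for small heat shock genes, -0.41 and -1.17 for HSP70, -0.38 and -1.13 for HSP90, -0.46 and -1.21 for HSP40, -0.26 and -1.02 for BAG, -0.27 and -1.03 for mitochondrial chaperones and -0.35 and -1.11 for HSF factors. After normexp correction the small heat shock median was 0.43, set by Hspb2. The other settings moved each of these medians by less than the median scanner error of a gene (0.18). Over the alternatives Hspb8 ranged from 0.96 to 2.07, Hspb2 from 0.43 to 1.77, Hspb1 from 0.12 to 1.23 and Bag3 from 0.07 to 1.16. The stricter filter left 34 genes, without Hspb2 and Hspb3, and 3 past 2-fold. Why spike-in and percentile scaling differ was not tested. No paired analysis was possible because each genotype had 1 array. Dim probes such as those of Hspb2 and Hspb3 are limited by their signal over background.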

Other observations

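The same 8 letters, gaagtttc, formed a paired unit in the promoter windows of 4 of the 29 genes with a window, Hspb8, Hspb1, Bag3 and Hspb6, against 1.35% of all 27025 genes with a window. These 4 genes had differences of 1.99, 1.16, 1.10 and 0.34, and 3 of them are the only genes with a window that were at least 2-fold higher in GPHR F/F;Nes. The string was noted after the sites and the differences had been seen. Its excess over all genes and its match to the higher genes follow from that choice, so they are a description, with no test. How other genes with the string differed was not examined. Hspb6 carries it in only 1 of its annotated windows, and in Hspb8 and Bag3 it begins 3 and 43 bases from the annotated start, counting the start as 1.

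Several genes had 1 probe apart from their others. The cDNA clone probe of Hspa4l, at chr3:40562457-40562516 of mm9, was at 0.87, with raw signals of 425 units in GPHR F/F;Nes and 347 units in GPHR F/F. The other 3 probes of Hspa4l stood between -0.003 and 0.235. A dim Dnajb6 probe at chr5:30084393-30084452 was at 0.59, with its other 4 between -0.47 and -0.09. Probes in opposite directions occurred in 11 of the 19 genes with several measured probes.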
